A study of Mus musculus with 4 samples.

Results

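Binding of the RNA helicase DDX5 was examined along 4 genes of TGF-β signalling, namely Furin, Pmepa1, Smad7 and Skil, in mouse Th17 cells, which are CD4 T cells that secrete IL-17. They were taken as the genes that the authors' gene-name column gives for a peak, and they held 24 of the 900 DDX5 peaks (2.67%) and were 4 of 459 genes with a peak. They were selected on having peaks in this list, that is, on the authors' log2 enrichment and −log10 p both reaching 3, and with these peaks already known, so their counts and enrichments are a description and were not tested. The data came from eCLIP (enhanced crosslinking and immunoprecipitation), in which RNA is fixed to protein by ultraviolet light, trimmed with RNase and pulled down with an antibody. There were 2 libraries pulled down with an antibody to DDX5 (IP) and 2 input libraries made without antibody, each group numbered 1 and 2. All came from wild-type C57BL/6 Th17 cultures, grown for 72 h from naive CD4 T cells of female mice with IL6, TGFb and antibodies to CD3 and CD28, so that the IP and input groups share the TGF-β treatment. The sample labels give the mice as 8 weeks old, and the series text gives 2 mice of 8 to 10 weeks. Each peak has a single log2 enrichment (IP relative to input) and a single −log10 p for both replicates together. These are the authors' values, the spread between replicates cannot be given, and read depth is unknown. Of the marker lists, 2 of 10 Th17 genes (Rora and Ahr) and 0 of 7 general T cell genes had a peak, while 2 of 4 regulatory T cell genes (Il2ra and Ctla4) had one. Of B cell, myeloid and cytotoxic genes, 0 of 5 each had one. A missing peak says nothing of whether a gene was expressed.

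TGF-β is secreted in a latent form, and its precursor is cut by proprotein convertases, of which FURIN is one. The mature cytokine binds a pair of receptor kinases that phosphorylate SMAD2 and SMAD3, which then enter the nucleus with SMAD4 and change transcription. Several of the genes switched on in this way act back on the pathway: SMAD7 blocks the receptor, SnoN (the product of Skil) represses SMAD target genes, and PMEPA1 holds back receptor-regulated SMADs. In T cells the pathway is needed for regulatory T cells and, together with IL-6, for Th17 cells.

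The peaks were unevenly divided among the 4 genes. Pmepa1 had 12 and Furin 10, ranking 5th and 7th of all genes when ties in peak number were ordered by the highest peak, whereas Smad7 and Skil had 1 each, as did 283 of the 459 genes. Introns of coding genes held 16 of the 24 peaks (66.7%, against 57.0% of all 900), 5′ UTRs held 6 (25%, against 16.6%), and 1 each lay in a 3′ UTR and a coding exon. No peak overlapped an annotated small RNA gene. Of the 24, 23 lay in a first exon or in an intron that begins within 500 nt of a transcript start, but this is common in the list, at 82.1% of 777 pairs of a peak and a protein-coding gene.

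Furin, the convertase (ENSMUSG00000030530.15, minus strand of chromosome 7), carried a group of 9 peaks around and after the downstream one of its RefSeq starts. The group spans 840 nt, at chr7:80402023-80402862 on mm10, and peaks cover 594 nt of it (70.7%). RefSeq windows of 250 bases before to 50 after a start (GRCm38.p6, the assembly of mm10) were found for Furin among these genes, and they place its starts at 80405436 and 80402812, 2624 nt apart. The annotation in the list gives further starts of coding transcripts, at 80403322, 80402762 and 80401707, and 2 of the 9 peaks lie nearer to the last of these, which is further downstream, than to any other coding start. No peak overlapped the window of the upstream start, while 2 overlapped that of the downstream start. The sequence before each start is shown, 5′ to 3′ on the gene's strand, because the peak at chr7:80402795-80402862 runs across the downstream start.
Furin upstream start, chr7:80405437-80405686: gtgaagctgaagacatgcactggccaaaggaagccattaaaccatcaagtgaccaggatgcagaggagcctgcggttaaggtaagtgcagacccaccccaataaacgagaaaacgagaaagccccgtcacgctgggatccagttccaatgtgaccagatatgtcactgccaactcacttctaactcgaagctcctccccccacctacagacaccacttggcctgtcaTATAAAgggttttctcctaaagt
Furin downstream start, chr7:80402795-80403062: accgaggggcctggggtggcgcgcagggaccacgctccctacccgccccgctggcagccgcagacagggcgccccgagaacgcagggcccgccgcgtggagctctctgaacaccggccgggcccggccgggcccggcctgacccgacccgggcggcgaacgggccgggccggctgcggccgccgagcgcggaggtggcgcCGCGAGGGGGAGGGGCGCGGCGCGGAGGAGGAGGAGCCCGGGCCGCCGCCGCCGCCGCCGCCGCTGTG
Capitals mark the word TATAAA in the upstream sequence and the 68-nt peak in the downstream one. Of the peak, 50 nt lie before the RefSeq start and 18 nt from the start onward. Such peaks were few, since 9 of all 900 had at least 10 nt on each side of a start in the table, which is not complete. The whole 300-base windows differed in composition, with 51.3% G+C and 7 CpG upstream and 82.3% G+C and 51 CpG downstream, against medians of 52.7% and 7 over 32851 windows. The downstream window was richer in G+C than 99.6% of all windows. The peak itself was 88.2% G+C and held 7 copies of GCC in tandem. A run at least as long was in 0.0396% of windows on the sense strand and in 0.128% on either strand. The length was taken from this peak and windows of like G+C were not compared, so these shares are a description only. TATAAA was found on the sense strand of the upstream window and on neither strand of the downstream one, and it was in 8.32% of all windows on the sense strand and 13.6% on either. A pattern of GGG repeated 4 times, with 1 to 7 N between, was on the sense strand of neither window and on the antisense strand of the downstream one, and it was in 10.5% of windows on the sense strand and 18.6% on either. These matches describe the letters only.

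Along the Furin RNA, the peak across the start had a log2 enrichment of 5.95 (61.6-fold) and a −log10 p of 67.3. The next 3 peaks, which overlap the first exon of the short transcript ENSMUST00000122232.7, had log2 enrichments of 6.77, 5.69 and 5.18 and −log10 p values of 56.9, 400 and 56.8. The peak across the end of that exon stood at 6.56, with a −log10 p of 34.9. Of the peaks that overlap this exon, the one at 5.18 was thus the lowest. Peaks covered 173 of its 233 nt (74.2%). The 58 nt between the peaks at 5.18 and 6.56 held no peak and so have no value here. In the intron that follows, the 4 remaining peaks of the group stood at 5.98, 6.03, 6.76 and 6.41, with −log10 p values of 400, 400, 164 and 47.9. The group ended 789 nt after the RefSeq start. The 10th peak, 29 nt in the 3′ UTR at chr7:80390000-80390028, was 11994 nt further along the gene and was the lowest of the 24, at 4.47 (22.1-fold) with a −log10 p of 7.45.

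The annotation of the Furin group depends on the transcript. The authors classed 4 of its peaks as 5′ UTR and 5 as deep intron, and they assigned 8 of the 9 to ENSMUST00000135306.2. That transcript starts upstream, and in it the whole group lies in an intron, 2456 to 3094 nt from the nearer splice site. The 5′ UTR class therefore does not follow from that transcript, and those 4 peaks overlap the first exon of ENSMUST00000122232.7. In ENSMUST00000122232.7, 4 of the 5 peaks classed as deep lie only 27, 129, 305 and 450 nt after the first exon, and the peak across the RefSeq start lies before the transcript. Which of these RNAs the cells contained was not tested, since no expression values were used here.

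**Figure D1:**
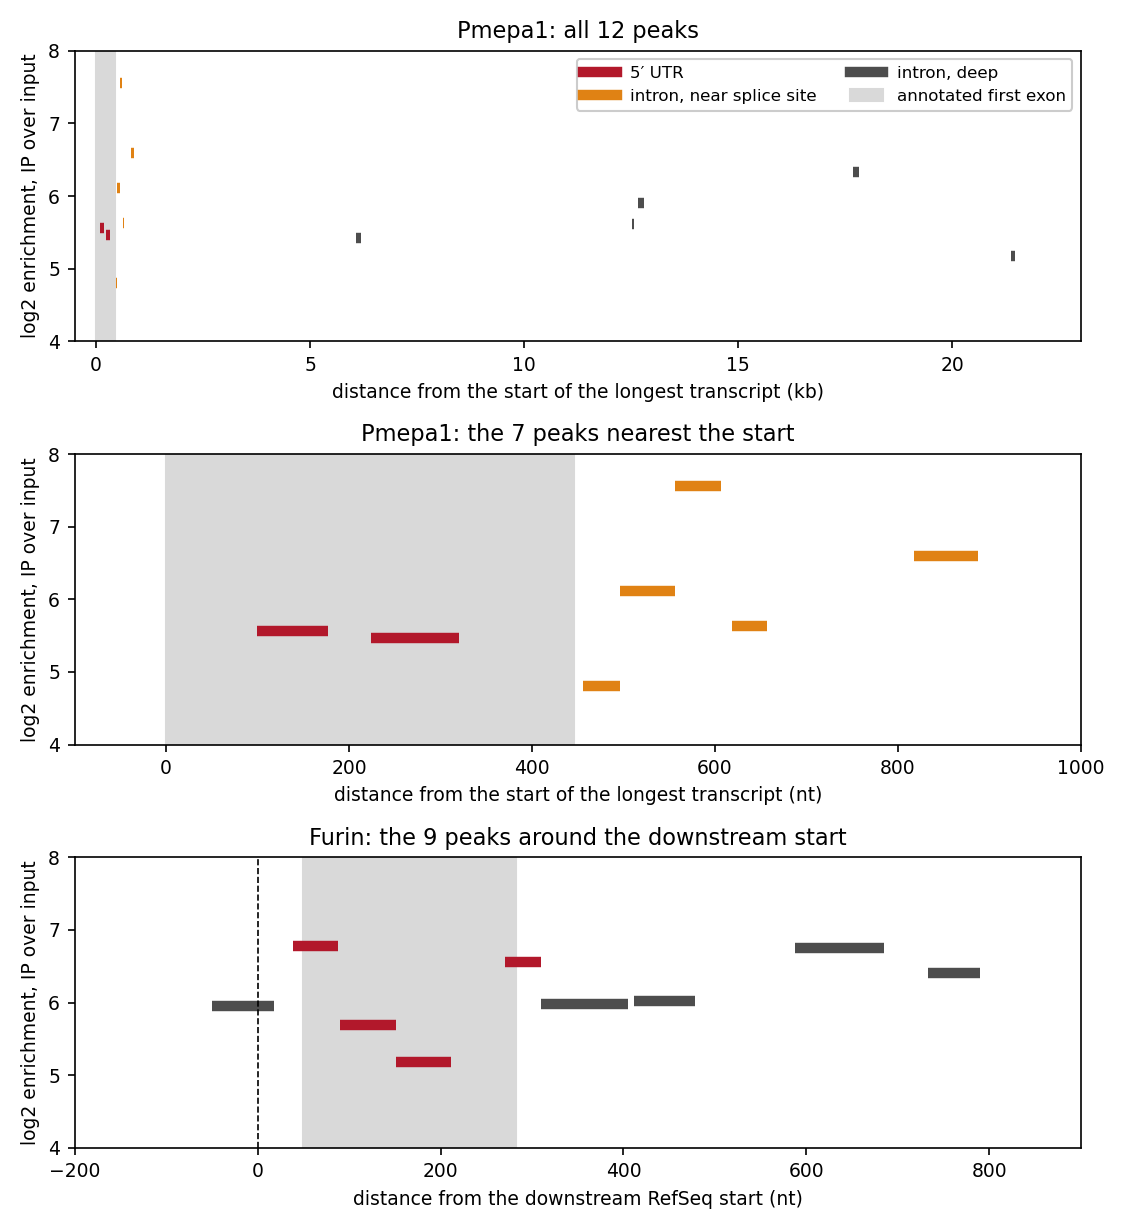
Peaks as bars drawn to scale, at their log2 enrichment of IP over input on the vertical axis, coloured by the authors' region class, with the annotated first exon in grey and the dashed line at the RefSeq downstream start of Furin. On the horizontal axis is the distance from the start in kb (top) or nt (middle and bottom). Pmepa1 has 7 peaks within 1 kb and 5 spread over the intron, and Furin has 9 peaks from 50 nt before to 789 nt after its downstream RefSeq start.

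Pmepa1, the membrane-bound inhibitor (ENSMUSG00000038400.15, minus strand of chromosome 2), had its 12 peaks in the first exon and the first intron of its longest transcript, from chr2:173255081 to 173276434. None lay in the rest of the gene. The first exon, 446 nt long, had 2 peaks in its 5′ UTR, at log2 enrichments of 5.57 and 5.46. The 5 peaks that follow lie within 500 nt of the exon, starting 10, 50, 110, 173 and 372 nt into the intron, at 4.81, 6.11, 7.55, 5.63 and 6.59. The peak at 7.55 (188-fold, chr2:173275927-173275977) was the highest of the 4 genes and the 20th of all 900. It touches the peak at 6.11, which in turn touches that at 4.81, so that enrichment was 28.0-fold, 69.2-fold and 188-fold in turn over 3 adjoining pieces of one 151-nt stretch. These 7 peaks formed a group of 789 nt, with 433 nt covered (54.9%). A further 5 peaks, of 59 to 150 nt, were scattered deep in the intron of 41626 nt, with midpoints 6125 to 21414 nt from the start and log2 enrichments of 5.43, 5.62, 5.91, 6.32 and 5.18.

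Furin and Pmepa1 had similar enrichment but differed in −log10 p. The median log2 enrichment was 6.01 in Furin (64.2-fold) and 5.62 in Pmepa1 (49.2-fold), with ranges of 4.47 to 6.77 and 4.81 to 7.55 that largely overlap. The −log10 p was 34.9 to 400 in the Furin group and 6.49 to 26.6 in Pmepa1, ranges that do not overlap, whereas the 3′ UTR peak of Furin lay within the Pmepa1 range. Of the Furin peaks, 3 reached 400, the highest value in the list, as did 72 of 900 peaks (8.00%), and only 18 of those 72 had a log2 enrichment of at least 5. Among 402 other peaks of coding genes with a log2 enrichment between 5.18 and 6.77, as in the Furin group, the median −log10 p was 12.1. Of these, 30 (7.46%) stood at 34.9 or above. Both the range and the cut of 34.9 were taken from the Furin group itself, whose 9 peaks lie within 840 nt. The share is therefore a description only. Per length of gene, Furin had 6.15 peaks per 10 kb and Pmepa1 2.30, which were 3rd and 7th among 25 genes with at least 5 peaks and a RefSeq length. Only the noncoding genes Malat1 and Neat1 were above Furin there. Read coverage was not used here, and its part in the −log10 p was not tested.

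**Figure D2:**
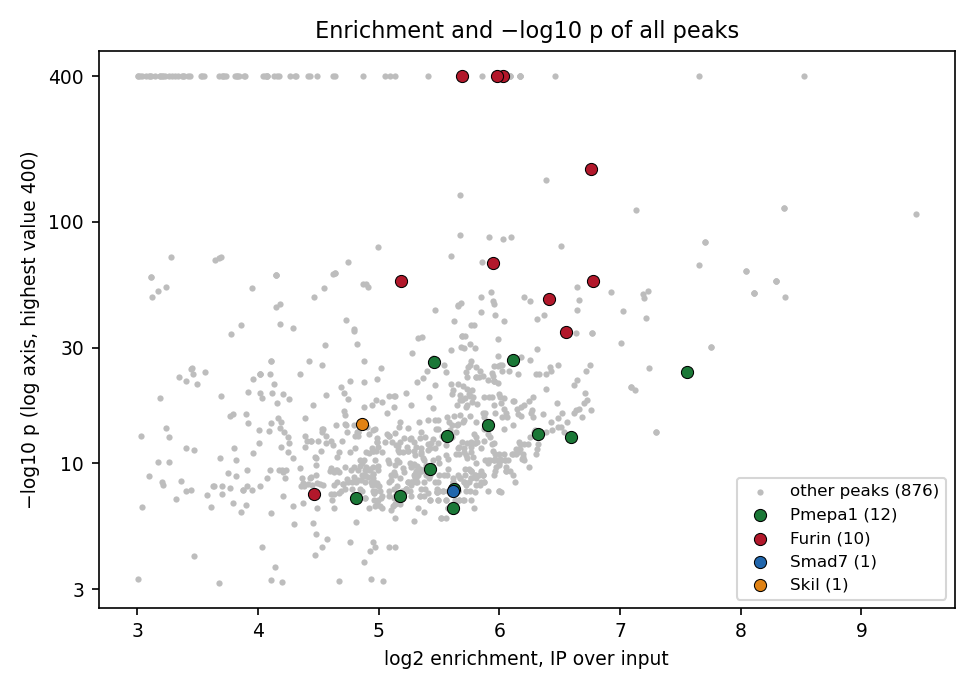
Each point is 1 of 900 peaks, with log2 enrichment of IP over input on the horizontal axis and −log10 p on a vertical log axis that ends at 400. The 9 grouped Furin peaks (red) stand at 34.9 or above, and all Pmepa1 peaks (green) at 26.6 or below, over much the same range of enrichment.

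Skil, which encodes the SMAD corepressor SnoN (ENSMUSG00000027660.16, plus strand of chromosome 3), had 1 peak of 116 nt at chr3:31095238-31095353. It starts 80 nt into an intron that begins 97 nt from the start of the longest transcript, and all 5 Skil transcripts overlapping it have an intron there. Its log2 enrichment of 4.87 (29.1-fold) was the third lowest of the 24, below the median of 5.31 over all peaks, and its −log10 p was 14.5. Of the 283 genes with 1 peak, 178 stood at least as high, with Skil itself counted.

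Smad7, the inhibitory SMAD that acts on the receptor (ENSMUSG00000025880.11, plus strand of chromosome 18), had 1 peak of 55 nt at positions 75369072 to 75369126. It was the only one of the 24 in coding sequence, within the first exon of all 3 annotated transcripts that overlap it, and covered nt 117 to 171 of the coding sequence (codons 39 to 57). The log2 enrichment was 5.62 (49-fold) and the −log10 p 7.67. Of the genes with 1 peak, 72 stood at least as high, with Smad7 itself counted. It lies 1570 nt from the start of the longest transcript but 109 nt from the nearest annotated start of a coding transcript. That nearest start, of ENSMUST00000174843.7 at 75368990, lies after the coding start at 75368956, so the codon numbers do not hold for that transcript.

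Over all 24 peaks the median log2 enrichment was 5.80 (55.7-fold), with a range of 4.47 to 7.55, beside 5.30 (39.3-fold) over the 876 other peaks and quartiles of 4.64 and 5.84 over the whole list. Above the median of all peaks lay 19 of the 24, including 10 of 12 in Pmepa1 and 8 of 10 in Furin. Widths were 29 to 150 nt, with a median of 63.5 nt against 65 nt in the list. At most 1 kb from where the longest transcript starts lay 8 of the 24 (33.3%), against 51.1% of the 777 peak and gene pairs. These were 7 of Pmepa1, 1 of Skil and 0 of Furin and Smad7. With the nearest annotated start of a coding transcript the count was 18 (75%), against 67.1%, since 9 of 10 Furin peaks and the Smad7 peak then lay within 1 kb. The share was thus below that of the list with the longest transcript and above it with the nearest start.

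Groups with as many peaks as those of Furin and Pmepa1 were few, but some other groups were more fully covered. When peaks of a gene at most 200 nt apart were joined, a distance set after the data were seen, 7 of 459 genes had a group of at least 7 peaks and 2 had one of at least 9. Satb1, which organises chromatin loops in T cells, had 10 peaks in 998 nt, Chd7, a chromatin remodeller, 8 in 1066 nt, and Map3k1, a kinase, 8 in 963 nt. The rest were the noncoding genes Malat1, with 7 peaks in 397 nt and 84.9% covered, and Gm26917, with 8 in 250 nt and 34.4% covered. Among smaller groups, Rbpj had 6 peaks in 552 nt with 75% covered and Mbd2 had 5 in 428 nt with 87.6% covered, beside 70.7% in Furin and 54.9% in Pmepa1. In the order of peak number, Pmepa1 stood between Neat1 (13 peaks, median log2 6.25) and Malat1 (12, 5.25), and Furin between Malat1 and Hdac7 (10, 5.69). Rfx5 and Tmem131, each with 1 peak at 5.62, stood next to Smad7, and Fkbp1a (4.88) and Mtmr12 (4.86) next to Skil. By the shares of peaks over 9 region classes, among 28 other genes with at least 5 peaks, Pmepa1 was most like Chd7, Zeb1 and Anp32b (summed differences of 0.167, 0.333 and 0.367, where 0 is the same and larger is less alike). Furin was most like Hnrnpf, Rbpj and Fam49b (0.2, 0.343 and 0.4).

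The wider pathway was viewed through a list of 62 TGF-β genes, of which 7 had a peak, including the 4 described here. Of the 58 others, 3 had one (5.17%), beside 1.81% of 21900 protein-coding genes. The count was not tested, since earlier results of these data were known when the list was drawn up. The list and all coding genes were also not matched for expression in these cells. Inhibitors had a peak in 5 of 16, but Pmepa1, Smad7 and Skil are among these and were chosen for having peaks. Without these members, 2 of 13 inhibitors had one, namely Ski and Fkbp1a. The counts by role were not tested. Ski, a corepressor related to SnoN, had 25 peaks with log2 enrichments of 4.63 to 7.24 and −log10 p values of 7.04 to 84.8. Fkbp1a, whose product binds the type I receptor, had 1 peak near a splice site at 4.88 (29.4-fold). Among ligands and their processing Furin, likewise chosen for its peaks, was the only one of 12, so 0 of the 11 others had one. Among genes listed as targets Cdkn1a, a cell cycle inhibitor, was the only one of 13, with 1 deep intron peak at 5.43 (43.0-fold). Each gene was given 1 role, so Pmepa1, Smad7 and Skil, which the pathway also switches on, count as inhibitors and not as targets. Receptors (0 of 10), receptor-regulated or common SMADs (0 of 5) and cofactors (0 of 6) had none, which does not show that DDX5 leaves these RNAs unbound. A peak of log2 enrichment of at least 5 was held by 2 of the 58 others (Ski and Cdkn1a), beside 1.21% of protein-coding genes.

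**Figure D3:**
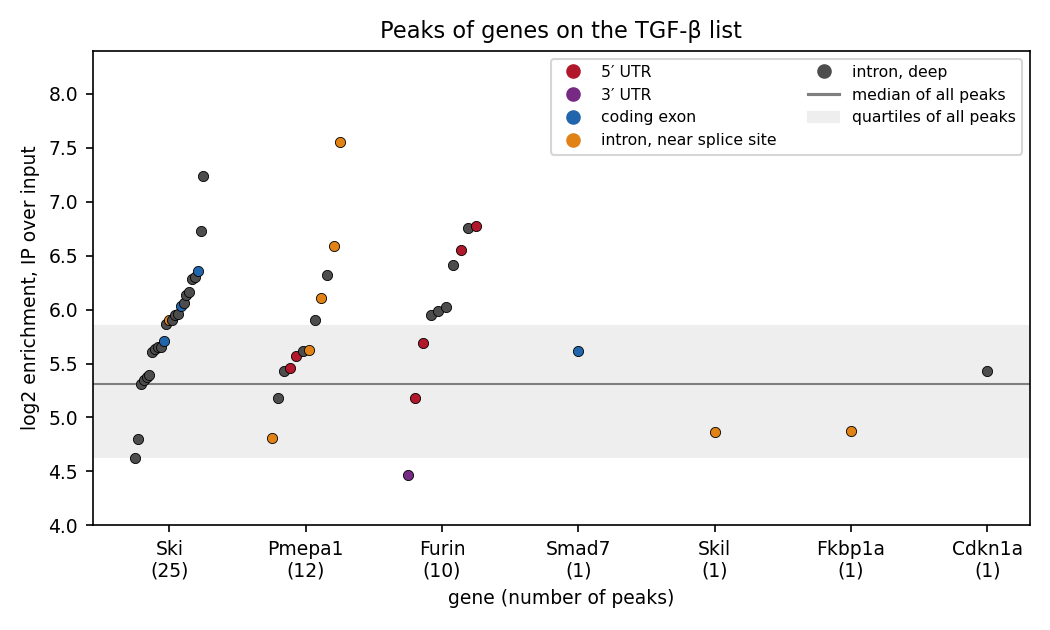
Log2 enrichment of IP over input for each peak (points, coloured by region class) of the 7 genes on the TGF-β list with a peak, with the number of peaks below each name. The line and the grey band are the median of 5.31 and the quartiles of all 900 peaks. Most points of Ski, Pmepa1 and Furin lie above the line, and Skil and Fkbp1a lie below it.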

How the data were processed

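DDX5 eCLIP was done in Th17 cells with 2 IP and 2 input libraries, grouped by their titles. Tools named in the submitters' processing notes are STAR 2.4.0i, cutadapt 1.9.1 and SAMtools 1.4.1, with the mouse build mm10. Each IP was, per the deposited settings, normalised to its own input, replicates were joined by irreproducible discovery rate, and peaks had to reach 3 in both log2 fold and −log10 p. Not given in the sources used here are peak caller and annotation release. The deposited list holds 1 log2 fold and 1 −log10 p (at most 400) per peak for both replicates, per the file headers, and no counts, so no test between libraries was possible. The labels do not say whether replicates are separate cultures.

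Members and gene lists were chosen with earlier results of these data known. Peak starts, counted from 0 in the file, are printed from 1. A peak counted for each gene it names, and 460 of 461 gene identifiers matched a table of Ensembl names. Transcripts, introns and exons come from the list's own annotation, gene lengths and sequences from RefSeq (GRCm38.p6). Sites join touching peaks. Distances are from peak midpoints. Named genes were the members, genes of the TGF-β list with a peak, neighbours in peak number, and the 3 genes most alike in region classes among those with at least 5 peaks. Python 3.11.15 with pandas 2.3.3 was used, and joining and distances were tested on simulated data.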

Additional observations from a re-analysis of the deposited data

How the results depend on the processing

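No paired analysis was possible because the deposited list gives no value for a single replicate, and for the same reason leaving out 1 replicate was not run. With only peaks of a −log10 p of at least 10, Pmepa1 had 7 peaks in place of 12 and Smad7 had 0 in place of 1. At a log2 enrichment of at least 5, Skil had 0 peaks in place of 1. Joining peaks at most 50 or 100 nt apart turned the 8 sites of Furin into 4 and 3. Of the 8 peaks within 1 kb of the longest transcript's start, 4 lay within 500 nt, and with the nearest start of a coding transcript the count rose to 18. The densest group of Pmepa1 held 4 peaks in place of 7 when joined at most 100 nt apart, an alternative chosen after seeing the data. The other 33 alternative values, including peak and site counts, intron counts, list genes and the median enrichment, stayed within 1.5 times of the main count or within the spread between peaks. The median log2 enrichment ranged from 5.62 without Furin to 6.03 for peaks with a −log10 p of at least 10. Depth is unknown, so how it limits the smaller genes' peaks cannot be given.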

Other observations

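Several peaks of these genes had the same values as peaks of other genes to all printed digits of the deposited list. The log2 enrichment of the Smad7 peak, 5.62, was shared by 6 peaks, namely 1 each of Smad7, Pmepa1, Rfx5, Sema4d, Tmem131 and Zbtb7a. Smad7 and Sema4d also shared the −log10 p of 7.67, and Pmepa1 and Rfx5 that of 6.49. A deep intron peak of Pmepa1 and a 5′ UTR peak of Matr3 both stood at a log2 enrichment of 6.32 and a −log10 p of 13.2, with widths of 146 and 49 nt. In all, 6 of the 24 peaks shared their log2 value with another peak, 5 of Pmepa1 and that of Smad7, against 364 of 900 in the list. Leaving aside the 72 peaks at the highest −log10 p, 89 peaks shared both values with a peak of another site, among them 3 of the 24. These 89 are 9.89% of all 900 peaks, with the 72 included in the 900. None of the Furin peaks and not the Skil peak shared its log2 value. Why values coincide was not tested.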
